A study of Homo sapiens with 72 samples.

Results

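Cytosolic ribosomal proteins, the protein components of the ribosomes outside mitochondria, were described across the whole dose range of omaveloxolone. Members were the protein-coding genes whose symbol is RPL or RPS followed by a number, alone or with A or X, together with RPLP0, RPLP1, RPLP2 and RPSA. Symbols came from Ensembl identifiers through GENCODE release 29. The rule gave 77 of 23170 counted genes, 46 of the large subunit and 31 of the small subunit. It used names only and no measured value. All 77 members passed the filter on low counts, and all 77 therefore entered every test. Another 894 ribosomal protein pseudogenes were counted and held 0.0338% of the counts in DMSO wells. How reads shared between a member and a near-identical pseudogene were assigned is not given in the sources used here.

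Normal human dermal fibroblasts of wildtype genotype, which are primary skin cells that make connective tissue, were kept on a 384-well plate for 24 hours. Every well received either omaveloxolone, a synthetic triterpenoid that activates the transcription factor NRF2 by binding KEAP1, or the solvent DMSO. DMSO filled 32 wells, in plate columns 2 and 23. Each of 10 doses had 4 wells (0.0005, 0.002, 0.005, 0.014, 0.04, 0.12, 0.37, 1.11, 3.33 and 10 µM), in plate rows K and L. RNA was counted by DRUG-seq, which reads the 3′ ends of polyadenylated RNA from barcoded lysates. Sample titles number the wells of each group as biological replicates. Nothing else in the labels ties wells to separate cultures or donors, so p-values measure the spread between wells, which may be technical. In the main fit all wells were fitted together, so that spread is pooled over all groups. An SE or p-value at a dose therefore does not reflect the scatter of its 4 wells alone. All 32 wells labelled DMSO were used, although the written protocol speaks of 16 on a plate. All 9 fibroblast markers listed, collagens and decorin among them, were counted in all 32 DMSO wells.

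Ribosomal proteins are made in near equal numbers and assembled with ribosomal RNA in the nucleolus, the large subunit carrying the peptidyl transferase centre and the small subunit decoding the mRNA. Their mRNAs are short, abundant and stable. They share a 5′ terminal oligopyrimidine tract (5′ TOP), a C at the transcription start followed by an uninterrupted run of C and T, through which mTOR and the RNA-binding protein LARP1 control their translation and stability together. Because of that shared element the family is often read as a single regulated group.

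The windows below show the tract in members on which the results turn. They span 10 bases before to 15 bases from the annotated start, as DNA of the sense strand in RefSeq on GRCh38.p14, with the tract at the start in capitals.
RPLP0: ggcgcgaggcCCTTCTCTCgccagg
RPLP1: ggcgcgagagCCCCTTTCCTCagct
RPS6: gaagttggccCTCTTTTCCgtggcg
RPL7A: attccctttcCTTTCTCTCTCCTCC
RPL35: cgcctacttcCTCTTTCCCTCggag
RPL36: cggcgccagcCCTTCCgccacggcc
RPS21: ctagctgcttCCTTTCTCTCTCgcg
RPL22: cgctcacctcCCTTTCTaactccgc
RPL12: cgatttccggCCTCTCggctttcgg
RPL10A: aagacatgctagtctcttttccggt
RPL3: gccgaccggcctctaccggcgggat
RPL4: cgggagtggtaagcacttccttttc
On the plus strand the windows lie for RPLP1 at chr15:69452808-69452832, RPL7A at chr9:133348208-133348232, RPL36 at chr19:5690285-5690309, RPS21 at chr20:62387093-62387117 and RPL10A at chr6:35468391-35468415. On the minus strand the windows lie for RPLP0 at chr12:120201097-120201121, RPS6 at chr9:19380222-19380246, RPL35 at chr9:124861943-124861967, RPL22 at chr1:6199581-6199605, RPL12 at chr9:127451392-127451416, RPL3 at chr22:39319609-39319633 and RPL4 at chr15:66504841-66504865. In RPL10A, RPL3 and RPL4 no run of at least 5 bases that opens with C begins exactly at the annotated start, so their windows carry no capitals. RefSeq starts were at hand for 62 of the 77 members. A tract of at least 5 bases beginning with C at any annotated start was found in 46 of these 62, or 74.2%, against 5.14% of all 27305 genes of the promoter table, searched on the sense strand only. Whether the tract goes with the values below was not tested.

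Depth fell steeply at the top doses, which sets the precision of every value there. DMSO wells held 4910790 to 8685413 counts, the 4 wells at 3.33 µM 132317 to 208739 and those at 10 µM 25635 to 39396. These counts leave out 38 genes that were kept out of the analysis and took a larger part of the counts at the top doses. At 10 µM the mean member share was 19.4% without these genes and 8.30% with them, against 11.7 and 11.4% in DMSO. The full depth at 10 µM was therefore larger than stated. The number of genes with a count fell from a mean of 13916 in DMSO to 4789 at 3.33 µM and 2428 at 10 µM. Changes were therefore read under both scalings in use, TMM and the size factors of DESeq2. Over the members, log2 changes with size factors lay above those with TMM by medians of 0.25, 0.06, 0.03 and 0.89 at 0.37, 1.11, 3.33 and 10 µM in turn. CPM values of wells are TMM-scaled unless size factors are named. The size factors rest on 554 genes counted in all 72 wells, and 73 of these, or 13.2%, are members. In bulk wells, fewer cells and less RNA per cell cannot be told apart. Members also differed across the plate without any drug: between DMSO wells, 50 of 77 members were called lower in column 23 than in column 2 (2.81% of the 11258 genes tested in that comparison were called lower), with a median log2 difference of −0.15. Each dose had 2 wells on either side of the plate, and a term for plate side moved no count of members by over 1.5 times. Within each side, however, dose fell from column to column, and no treated well shared a column with DMSO. Dose and plate column therefore cannot be told apart, with or without that term.

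Members took a stable share of all counts up to 0.12 µM, a smaller share at 0.37 µM and a much larger one at 3.33 and 10 µM. In DMSO they held 10.3 to 12.9% of a well's counts, with a median of 11.9% and a mean of 11.7% ± 0.641 (SD, n = 32). Doses from 0.0005 to 0.12 µM had means of 12.0 to 12.4%. At 0.37 µM the wells stood at 10.3, 8.18, 9.68 and 9.40%, 3 of the 4 below every DMSO well. That dose carried the largest total counts of the series, 1.48-fold the DMSO mean. At 1.11 µM the share was 11.7% ± 0.553 (SD, n = 4), inside the DMSO range in all 4 wells, while the total was down to 0.235 of the DMSO mean. At 3.33 µM it was 26.0, 26.4, 24.8 and 26.3%, and at 10 µM 20.4, 18.5, 17.1 and 21.7%. All 8 of these wells lay above every DMSO well, by 2.21-fold and 1.66-fold in the mean. By plate side, DMSO wells had means of 12.1% in column 2 and 11.3% in column 23. The left and right wells had 8.79 and 9.99% at 0.37 µM, 26.3 and 25.4% at 3.33 µM and 20.1 and 18.8% at 10 µM, so each order held on both sides. Transcripts of the mitochondrial genome moved as well, from a mean of 0.955% of counts in DMSO to 0.0428% at 0.37 µM and 0.116% at 3.33 µM. Leaving them out of the total gave member shares of 9.39 and 25.9% at these doses. These shares leave out 38 genes, among them a pseudogene resembling 18S ribosomal RNA. With those genes kept in the total, DMSO wells had a mean share of 11.4%, against 18.4% for 3.33 µM and 8.30% for 10 µM, so that at 10 µM its direction turned and all 4 wells lay below every DMSO well.

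**Figure D1:**
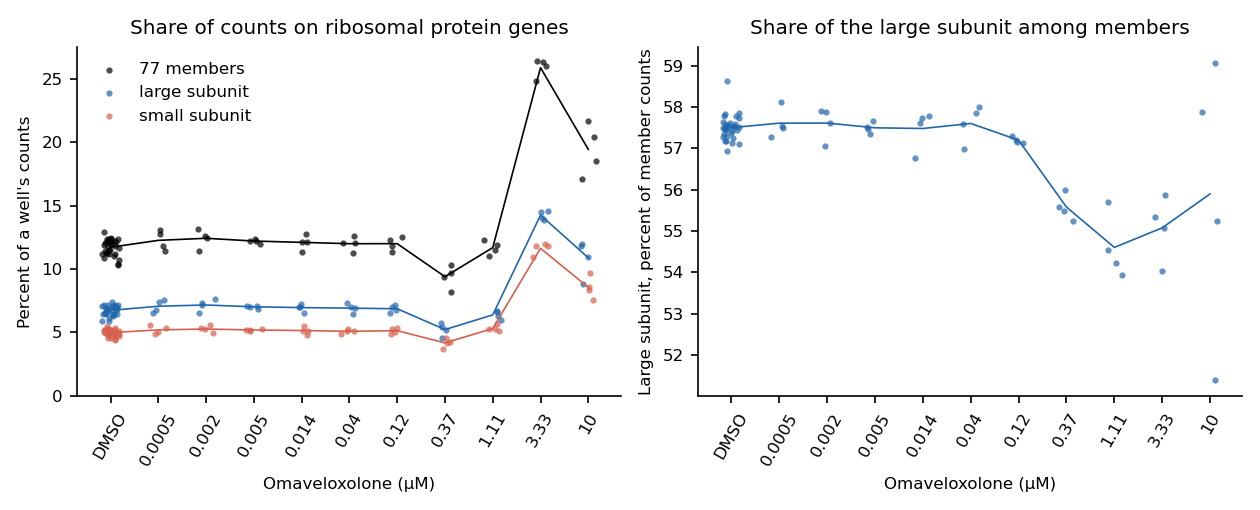
Percent of each well's counts on the 77 members and on the large and small subunit members (left), and the large subunit's percent of member counts (right), by dose in µM; points are wells and lines join group means. The member share dips at 0.37 µM, peaks at 24.8 to 26.4% at 3.33 µM and stays above the DMSO wells at 10 µM. Totals leave out 38 genes, and with these kept all 4 wells at 10 µM lie below the DMSO wells.

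The balance between the subunits shifted from 0.37 µM on. Large subunit members held 57.5% ± 0.303 of member counts in DMSO (SD, n = 32; 56.9 to 58.6%). At 0.37, 1.11 and 3.33 µM they held 55.6% ± 0.314, 54.6% ± 0.780 and 55.1% ± 0.773 in turn (SD, n = 4 each), with all 12 of these wells below every DMSO well. No such order was seen at 10 µM, where the wells read 57.9, 59.1, 51.4 and 55.2% and so fell on both sides of DMSO. Replicate 3 of that dose, with 25635 counts the shallowest well of all, gave the lowest value.

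At doses under 0.12 µM no member was called by edgeR's quasi-likelihood test. The share of all 14259 genes called in either direction rose with dose from 0.00701% through 0.0561%, 0.0771% and 0.217% to 0.792%, for 0.0005, 0.002, 0.005, 0.014 and 0.04 µM in turn. Member medians were 0.06 to 0.12 on the log2 scale. At an unadjusted p under 0.05 there were 3, 5, 5, 2 and 5 members at these doses in turn, RPL39 among them each time, and DESeq2's Wald test called 1 lower at 0.005 and 1 at 0.04 µM. At 0.12 µM 0 members were higher (background 1.31%; 7 at an unadjusted p under 0.05 and 1 by the Wald test) and 1 was lower (background 1.02%), with a median of 0.13 beside −0.07 over all genes tested. The member called was RPL39, a short protein of the nascent peptide exit tunnel, with 14.6, 7.21, 16.2 and 5.89 CPM against 11.4 to 103 CPM with a median of 37.4 in DMSO. Its log2 change was −1.85 ± 0.54 (SE), adjusted p = 0.045. Only 35 to 134 counts per well support it at this dose, its log2 difference between the DMSO columns was −1.14, and its log2 change was already −1.16 to −1.92 at the 5 lower doses without being called. The other members with extreme values at 0.12 µM, RPL21, RPS24 and RPL34 at the low end and RPL22, RPL4, RPL9 and RPL10 at the high end, ranged from −0.14 to 0.29 and were not called.

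At 0.37 µM the family was lower under TMM scaling and spread around 0 with size factors, with members moving to very unequal degrees. Under TMM scaling 35 of 77 members fell (13.6% of all genes were called lower) and 0 rose (11.2% of all genes were called higher). None was higher at an unadjusted p under 0.05 either, while the Wald test of DESeq2, on its own size factors, called 15 higher and 17 lower. The median over the 77 members under TMM was −0.26, beside −0.14 over all genes tested and −0.12 over the 1517 other genes with at least 100 CPM in DMSO. With size factors the median was −0.01, 11 members were lower (background 10.1%) and 7 higher (background 17.4%), so the count of fallen members depends on the scaling. The 11 that were lower under both scalings were RPL10A, RPL12, RPL13, RPL15, RPL26, RPL3, RPL31, RPL36, RPL39, RPL7A and RPS9. Of these 10 were of the large subunit, which holds 46 of the 77 members. All 4 wells lay outside the DMSO range, on the low side, for 13 members under TMM and 8 under size factors, beside 5.18 and 3.63% of all genes tested. On the high side they lay outside it for 0 members under TMM and 4 under size factors (RPS12, RPS13, RPS20 and RPS23), beside 6.03 and 9.25% of all genes.

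RPL10A, a protein of the large subunit's L1 stalk (chr6:35468408-35470785, plus strand), had the deepest called fall with ample counts. Its wells read 863, 622, 772 and 762 CPM against 1294 to 1877 CPM with a median of 1580 in DMSO, with no overlap. The log2 change was −1.06 ± 0.10 (SE), adjusted p = 1.36e-14, and −0.81 ± 0.08 (SE), adjusted p = 7.85e-13 with size factors. RPL3, which reaches toward the peptidyl transferase centre, fell to 421, 258, 359.7 and 389 CPM from 533 to 780.2 CPM with a median of 670.1, a log2 change of −0.89 ± 0.16 (SE), adjusted p = 5.68e-06. RPL12, at the base of the stalk that binds translation factors, fell to 634, 515, 644 and 575 CPM from 837 to 1250 CPM with a median of 1081, a log2 change of −0.83 ± 0.10 (SE), adjusted p = 4.41e-10. RPL3 and RPL12 likewise did not overlap DMSO in any well. RPL39 was lowest of all by log2 change, at −2.10 ± 0.55 (SE), adjusted p = 0.00217, again on few counts (40 to 136 per well). At the other end stood small subunit proteins. RPS26, RPS12, RPS23 and RPS13 had log2 changes of 0.17, 0.16, 0.15 and 0.11 under TMM, none called, and 0.42, 0.41, 0.40 and 0.37 with size factors, all called higher. Of the 4 wells replicate 2 was the lowest for 76 of the 77 members, and without it 23 members were called lower. With the DMSO wells of column 23 alone as controls 19 were.

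At 1.11 µM members moved in both directions relative to the other genes. Unscaled, the summed member counts stood at 0.236 of the DMSO mean, and total counts at 0.235. Under TMM 19 rose (background 9.77%) and 11 fell (background 13.2%), with a median of 0.14 beside −0.20 over all genes and −0.09 over the other abundant genes. With size factors 34 rose (background 10.8%) and 10 fell (background 12.1%), and all 19 risen and 10 of the 11 fallen members kept their call, all but RPS24. Scaling by library totals put the median at −0.063. RPS19, whose gene is the one most often mutated in Diamond-Blackfan anaemia, read 7371, 8219, 7959 and 6856 CPM against 4128 to 6012 CPM with a median of 5284, above every DMSO well, with a log2 change of 0.56 ± 0.07 (SE), adjusted p = 3.51e-10. RPS12, a small subunit protein, read 3179, 3069, 3242 and 2993 CPM against 1816 to 2563 CPM with a median of 2192, also above every DMSO well, with a log2 change of 0.52 ± 0.09 (SE), adjusted p = 1.84e-06.

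Of the 11 members that fell at 1.11 µM under TMM, 8 were of the large subunit, which holds 46 of all 77 members. RPL23, one of the ribosomal proteins that can bind the p53 regulator MDM2, read 244, 333, 385 and 317 CPM against 549 to 708 CPM with a median of 644 in DMSO. All 4 wells lay below the DMSO range, and the log2 change was −1.01 ± 0.15 (SE), adjusted p = 1.38e-07. RPL28 gave 440.4, 447, 429 and 435 CPM against 685 to 900.5 CPM with a median of 771, again with no overlap, and a log2 change of −0.83 ± 0.11 (SE), adjusted p = 6.56e-09. RPL14 gave 341, 655, 424 and 382 CPM against 584 to 899 CPM with a median of 728, with replicate 2 inside the DMSO range, and a log2 change of −0.71 ± 0.14 (SE), adjusted p = 5.11e-05. RPL39 was at −1.95, on 3 to 23 counts per well.

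At 3.33 µM nearly the whole family was higher after scaling, that is, relative to the other genes. Unscaled, the summed member counts were lower, with a mean of 43887 per well against 774504 in DMSO. They stood at 0.0567 of the DMSO mean, and total counts at 0.0255. Under TMM 69 of 77 members rose, against 7.35% of all genes, and 1 fell, against 32.9% of all genes. With size factors 71 rose (background 7.51%) and 1 fell (background 32.4%), and the 69 and the 1 were called in the same direction under both. The median log2 change was 0.88 under TMM and 0.91 with size factors. Over the 1517 other abundant genes, not matched to the members for level in DMSO, it was −0.72 and −0.71. Of these 9.43% were called higher under TMM. Over all genes tested the TMM median was −2.32, at a depth where a mean of 4789 genes per well had a count. Large and small subunit members had similar medians, 0.86 and 0.90. All 4 wells lay above every DMSO well for 55 members under TMM and 56 under size factors, beside 0.807 and 0.799% of all genes tested. They lay below every DMSO well for 0 members under TMM and 1, RPL4, under size factors, beside 22.8 and 22.7% of all genes.

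RPL36 rose strongly, with 5297, 4269, 4644 and 5721 CPM against 1079 to 1497 CPM with a median of 1339 in DMSO and a log2 change of 1.93 ± 0.07 (SE), adjusted p = 2.64e-35. RPL31 and RPS19 rose by 1.57 and 1.55 on the log2 scale, adjusted p = 2.85e-29 and 4.23e-34. None of these 3 members overlapped DMSO. RPLP1, RPL7A and RPS14, which with RPS19 were among the 5 with the highest CPM in DMSO, rose by 1.17, 0.64 and 1.34.

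A few members did not share this rise. RPL4, a large subunit protein that lines the nascent peptide exit tunnel (chr15:66498015-66524532, minus strand), was the only one called lower, with 556, 978, 1089 and 1053 CPM against 1044 to 1607 CPM with a median of 1335 in DMSO. Under TMM 2 of the 4 wells lay below the DMSO range and with size factors all 4, on 97 to 220 counts per well. The log2 change was −0.52 ± 0.13 (SE), adjusted p = 0.00123. The call was lost under TMM restricted to abundant genes and when only DMSO wells from plate rows K and L served as controls. It was also lost in the fit with a block on replicate number. RPS26, which lies at the mRNA exit channel, RPL15 and RPL11 had log2 changes of 0.05, 0.18 and 0.20 and were not called. For RPL15 replicate 2 stood apart, at 1942 CPM beside 3290 to 3474 in the other 3 wells.

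**Figure D2:**
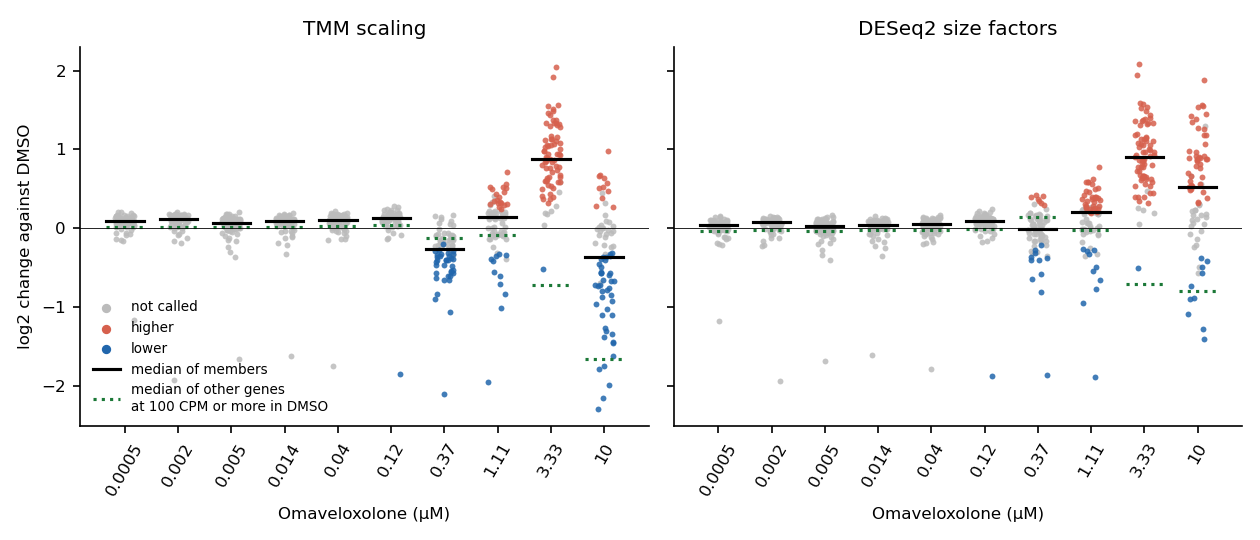
log2 change against DMSO of each of the 77 members at each dose in µM, under TMM scaling (left) and DESeq2 size factors (right); colours mark calls at an adjusted p under 0.05, bars the member median and dotted bars the median of 1517 other abundant genes. At 3.33 µM the member median is 0.88 and 0.91 under the 2 scalings, and at 10 µM they place it on opposite sides of 0.

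At 10 µM the direction of the family depended on the scaling. Unscaled, the summed member counts stood at 0.00773 of the DMSO mean, and total counts at 0.00463. Under TMM 11 members were higher (3.35% of all genes were) and 42 lower (31.8% of all genes were), with a median log2 change of −0.37. With size factors 42 were higher (background 6.56%) and 10 lower (background 14.2%), with a median of 0.52. Scaling by library totals, which leave out 38 genes as above, gave a median of 0.73, and size factors computed without the members 0.61. With those genes kept in the total, the mean member share at 10 µM was 8.30%, against 11.4% in DMSO. All 4 wells then lay below every DMSO well. No fit was run on totals with those genes kept. Set against the 1517 other abundant genes, whose medians were −1.66 under TMM and −0.79 with size factors, the member median was the higher under both. Those genes had at least 100 CPM in DMSO but were not matched to the members for level. All 77 members together had 4382 to 7298 counts in a well of this dose, and single members scattered widely between wells. Because SE and p-values pool the spread over all groups, they may understate the scatter of the 4 wells at this dose.

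Some members were called the same way under both scalings. The 11 called higher under both included RPL28, RPL29, RPL35, RPL36, RPL38, RPS15, RPS21, RPS27, RPS29 and RPS9. The 10 called lower under both were RPL12, RPL15, RPL22, RPL5, RPL6, RPL7A, RPL9, RPLP0, RPS13 and RPS7. Another 11 were called lower under TMM and higher with size factors.

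RPL35, which sits at the exit of the nascent peptide tunnel, had the largest rise, with 1565, 726, 1123 and 2016 CPM against 532 to 754 CPM with a median of 704 in DMSO. Replicate 2 lay inside the DMSO range and the other 3 wells above it, and with size factors all 4 lay above it. The log2 change was 0.98 ± 0.11 (SE), adjusted p = 2.40e-11, and 1.89 ± 0.11 (SE), adjusted p = 5.84e-25 with size factors. RPL36 read 2249, 1857, 2000 and 2079 CPM against 1079 to 1497 CPM with a median of 1339, above every DMSO well in all 4, with a log2 change of 0.64 ± 0.09 (SE), adjusted p = 1.37e-08. RPS21 and RPS29, both at 0.67 (adjusted p = 4.00e-04 and 4.32e-04), had 21 to 41 and 11 to 37 counts per well. Under TMM their wells overlapped DMSO. With size factors they were at 1.56 and 1.56, and all 4 wells of each lay above DMSO.

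The deepest fall was that of RPL22, a large subunit protein that cells can replace by its paralog RPL22L1. It read 147, 67.3, 35.1 and 110.2 CPM against 326 to 518 CPM with a median of 446 in DMSO, below the DMSO range in all 4 wells, on 2 to 9 counts per well. Its log2 change was −2.29 ± 0.31 (SE), adjusted p = 6.14e-09, and −1.40 ± 0.30 (SE), adjusted p = 2.32e-04 with size factors. RPL9 read 261, 161, 17.5 and 0 CPM against 367 to 616 CPM with a median of 484, on 0 to 16 counts per well, log2 change −2.15 ± 0.26 (SE), adjusted p = 1.68e-10. RPS7, another MDM2-binding member, read 196, 80.7, 895 and 110.2 CPM against 935 to 1394 CPM with a median of 1268, with replicate 3 far above the other wells but still below DMSO under TMM. The log2 change was −1.99 ± 0.21 (SE), adjusted p = 5.95e-12. RPL5, which with RPL11 and 5S ribosomal RNA forms the particle that binds MDM2, read 97.8, 659, 1123 and 709 CPM against 1759 to 2688 CPM with a median of 2243. This was a log2 change of −1.79 ± 0.17 (SE), adjusted p = 3.40e-14. Under TMM RPL9, RPS7 and RPL5 lay below the DMSO range in all 4 wells. With size factors 3 wells of each did, and their log2 changes were −1.28, −1.08 and −0.89 (adjusted p = 3.19e-05, 3.24e-05 and 6.42e-06). RPL22 was below DMSO in all 4 wells under both scalings. Over the family, all 4 wells lay below DMSO for 20 members under TMM and 3 with size factors, beside 41.9 and 37.7% of all genes, and above it for 1 and 18, beside 0.112 and 0.442%.

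RPS6, RPS12 and RPL8 were among those called in opposite directions. RPS6, the ribosomal protein phosphorylated by S6 kinases downstream of mTOR, read 3015, 1843, 1667 and 2771 CPM under TMM against 2812 to 3804 CPM with a median of 3436 in DMSO. With size factors the same wells read 5218, 3018, 3083 and 5359 CPM against 2946 to 3512 CPM with a median of 3322. Its log2 change was −0.56 ± 0.09 (SE), adjusted p = 5.29e-07 under TMM and 0.33 ± 0.08 (SE), adjusted p = 5.51e-04 with size factors. Under TMM 3 of the 4 wells lay below the DMSO range, and with size factors 2 lay above it and 2 inside. RPS12 and RPL8 turned likewise, from −0.49 and −0.59 to 0.39 and 0.33.

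**Figure D3:**
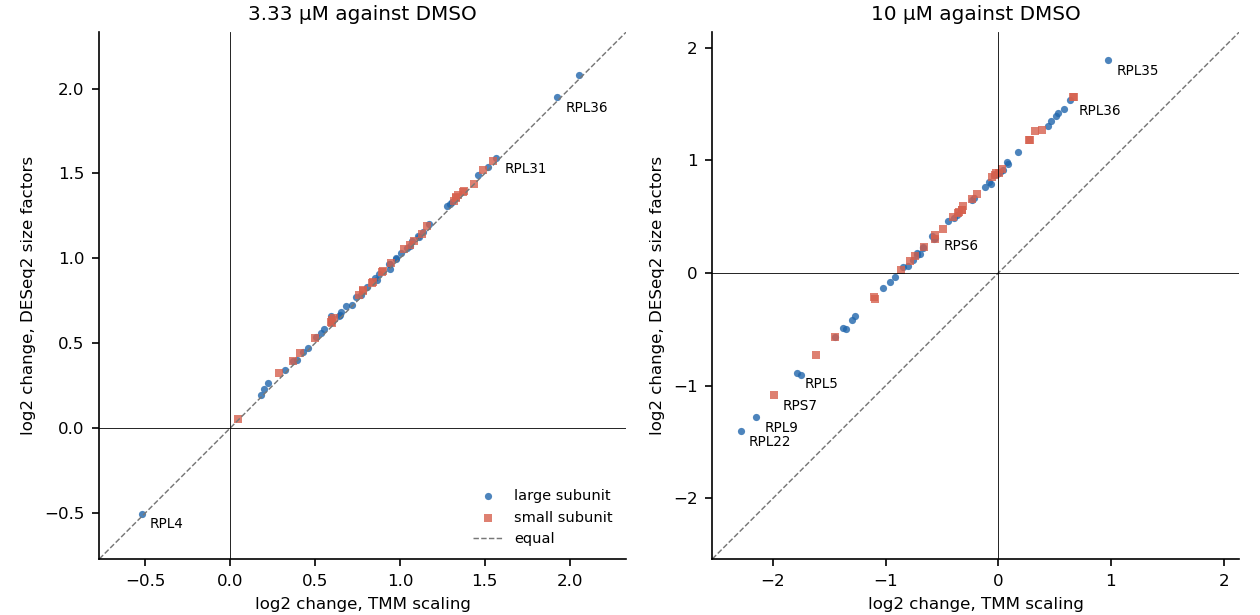
log2 change of each member under TMM (horizontal) and DESeq2 size factors (vertical) at 3.33 µM (left) and 10 µM (right), large subunit members as circles and small subunit members as squares, with a dashed line of equality. Points lie on the line at 3.33 µM and about 0.89 above it at 10 µM.

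The stalk proteins and the members with roles outside the ribosome differed among themselves. RPLP0, the base of the stalk, read 7360, 5305, 7142 and 7789 CPM at 3.33 µM against 2292 to 3789 CPM with a median of 3465 in DMSO and 1369, 1561, 632 and 1968 CPM at 10 µM. Under TMM it was above every DMSO well at the first dose and below every one at the second, with log2 changes of 1.04 ± 0.09 (SE), adjusted p = 6.06e-15 and −1.27 ± 0.12 (SE), adjusted p = 1.09e-13. With size factors its log2 change at 10 µM was −0.38 ± 0.10 (SE), adjusted p = 0.00472, and its wells lay on both sides of the DMSO range. RPLP1 and RPLP2, the acidic proteins that sit on it, rose by 1.17 and 1.11 at 3.33 µM. At 10 µM they stood at −0.01 and 0.17 under TMM, not called, and at 0.88 and 1.07 with size factors, both called higher. RPL11 was not called at 3.33 µM and fell by 0.67 at 10 µM under TMM only (adjusted p = 4.99e-04). With size factors it was at 0.23, adjusted p = 0.252. RPS27A, made as a fusion with ubiquitin, rose by 0.76 at 3.33 µM (adjusted p = 2.33e-08). Its log2 change at 10 µM was −1.10 under TMM, called, and −0.22 with size factors, not called. RPL41, the shortest ribosomal protein, fell at 0.37 µM, with a log2 change of −0.43 under TMM and −0.18, not called, with size factors. It rose by 1.31 at 3.33 µM. RPSA, also known as a laminin receptor, had few counts (135 to 229 CPM in DMSO) and rose by 1.44 at 3.33 µM, adjusted p = 2.17e-10, with 3 of 4 wells above DMSO.

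**Figure D4:**
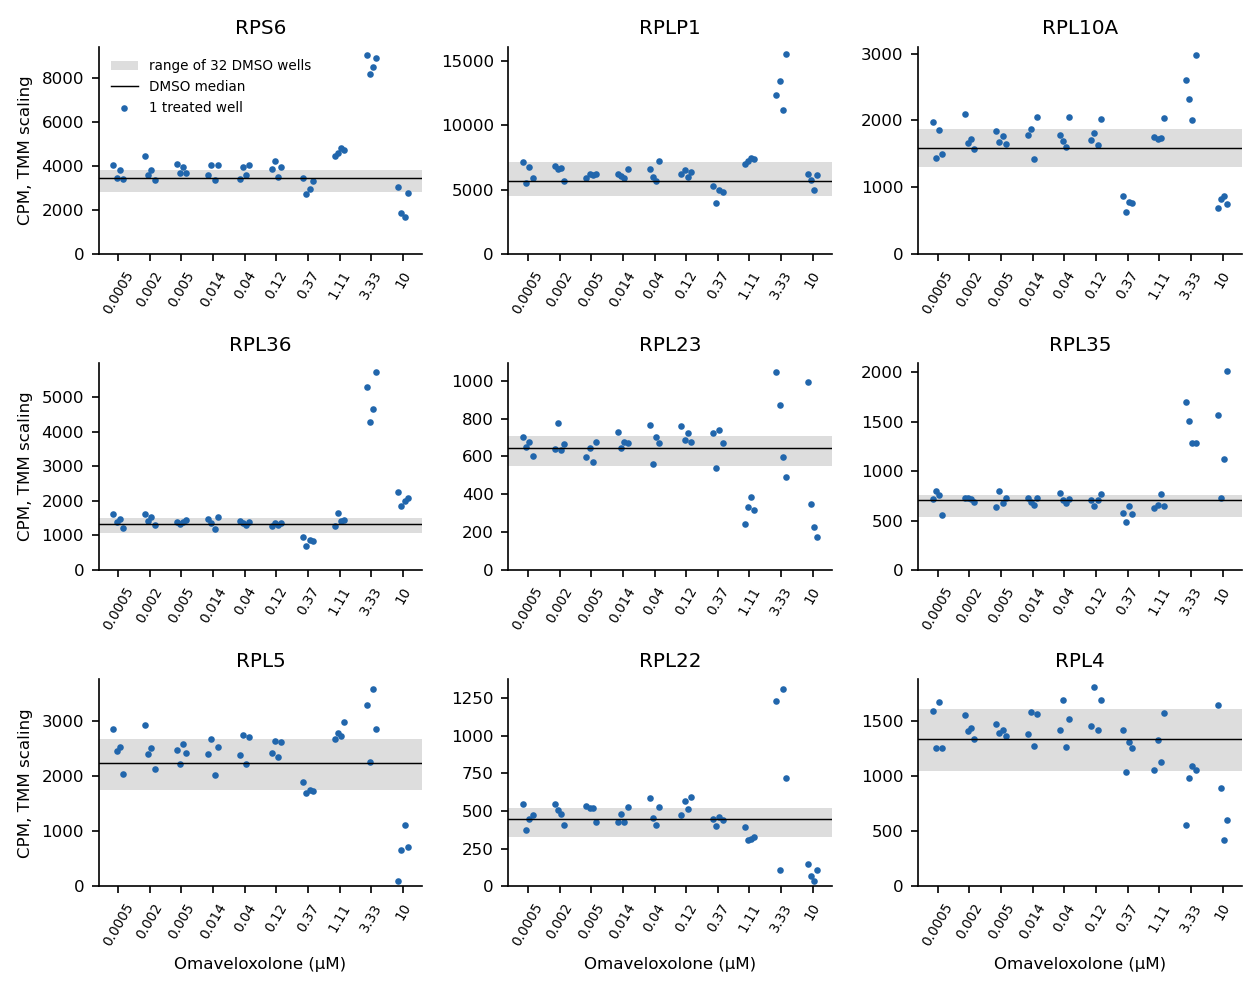
CPM under TMM scaling of 9 members in each treated well by dose in µM (points), over the range (grey band) and median (line) of the 32 DMSO wells. RPL10A leaves the band downward at 0.37 µM, RPL36 upward at 3.33 and 10 µM, RPL23 downward at 1.11 µM, and RPL22 and RPL5 downward at 10 µM.

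Steps between neighbouring doses from 0.12 µM on were tested as well. Under TMM, from 0.12 to 0.37 µM 30 members fell (background 5.6%) and 0 rose (background 2.51%; 0 at an unadjusted p under 0.05 and 2 by the Wald test). From 0.37 to 1.11 µM 38 rose (background 12.1%) and 4 fell (background 13.4%). From 1.11 to 3.33 µM 63 rose (background 7.13%) and 1, RPL4, fell (background 27.6%). From 3.33 to 10 µM 0 rose (background 5.58%) and 67 fell (background 15.3%). With size factors the steps gave 0 higher and 8 lower (background 5.63 and 3.43%), 29 and 8 (10.1 and 17.2%), 63 and 1 (6.82 and 28.4%), and 4 and 41 (8.91 and 6.35%) in turn, so the first step called far fewer members than under TMM. In the last step under TMM 0 rose at an unadjusted p under 0.05, 5 rose and 43 fell by the Wald test, and the member median was −1.39 under TMM and −0.53 with size factors. RPL10A moved furthest in the first of these steps under TMM, by −1.24, and returned by 1.26 in the second. These steps share wells with the comparisons above and with each other.

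Members were also set against the sum of member counts in each well, which needs no scaling from other genes and shows shifts within the family. At 0.37 µM RPL10A and RPL3 lay at −0.79 and −0.63 on the log2 scale of that ratio and RPS26 and RPS12 at 0.45 and 0.44. At 3.33 µM RPL4 and RPS26 lay at −1.54 and −0.99 and RPL36 at 0.90. At 10 µM the extremes were RPL22 and RPL9 at −1.93 and −1.79 and RPL35 and RPS21 at 1.34 and 1.06. RPS26 thus stood at the top of the family at 0.37 µM and near the bottom at 3.33 µM.

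Among 7 other lists of the translation system, none had a TMM median at 3.33 µM above that of the members. Their counts are under TMM unless size factors are named, and stand against 11.2% of all genes called higher and 13.6% lower at 0.37 µM, and 7.35% and 32.9% at 3.33 µM. With size factors these shares were 17.4% and 10.1% at 0.37 µM, and 7.51% and 32.4% at 3.33 µM. At 10 µM they were 3.35% and 31.8% under TMM, and 6.56% and 14.2% with size factors. Of 20 other genes listed for 5′ TOP mRNAs, 7 fell and 1 rose at 0.37 µM, with a median of −0.32 under TMM, and 4 fell and 4 rose with a median of −0.07 with size factors. Among the 7 under TMM were the elongation factors EEF1A1 (32879, 25120, 27286 and 28761 CPM at 0.37 µM against 32792 to 46768 CPM with a median of 41454 in DMSO, log2 change −0.55 ± 0.09 (SE), adjusted p = 5.63e-07) and EEF2 (−0.59) and the initiation factor EIF4B (−1.03). At 3.33 µM 8 of the 20 rose and 5 fell, with a median of 0.15. FAU, which encodes a small subunit protein fused to a ubiquitin-like protein but lies outside the naming rule and was picked here with its value known, was at 0.79, higher. EEF1A1 was at 0.16, not called under TMM, and at 0.19 with size factors, where it was called and 9 of the 20 rose. At 10 µM 17 of the 20 fell and 1 rose under TMM, and 10 fell and 2 rose with size factors.

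Among factors that start or end translation and those that build ribosomes, more rose than fell at 0.37 µM. Of 29 initiation and termination factors 14 rose and 0 fell there (1 lower at an unadjusted p under 0.05 and 0 by the Wald test), with a median of 0.56, and 3 rose and 15 fell at 3.33 µM, with a median of −0.69. EIF5, the GTPase-activating protein of start codon selection, rose by 1.44, EIF3J by 1.47 and EIF1 by 0.76 at 0.37 µM (adjusted p = 3.85e-09, 6.88e-07 and 6.72e-06). Of 38 ribosome biogenesis factors 12 rose and 3 fell at 0.37 µM, with a median of 0.45, among them NOP10 of the box H/ACA particles (1.12), SBDS, which helps release EIF6 from the large subunit (1.10), and RRP12 (2.73). With size factors 18 rose and 1 fell there. At 3.33 µM 3 of the 38 rose and 16 fell. The 78 mitochondrial ribosomal proteins, which serve a separate ribosome, had medians of 0.16 at 0.37 µM (13 rose, 6 fell) and −0.58 at 3.33 µM (3 rose, 30 fell), the second near the share of all genes called lower. With size factors 22 rose and 4 fell at 0.37 µM, with a median of 0.41. Their share of counts was 0.473% ± 0.0229 in DMSO and 0.419% ± 0.0419 at 3.33 µM (SD, n = 32 and 4).

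Regulators of the 5′ TOP class and paralogs outside the rule gave single large changes. SESN2, a stress-induced inhibitor of mTORC1, read 112, 176, 123 and 100.3 CPM at 0.37 µM against 11.9 to 47.1 CPM with a median of 28.1 in DMSO, a log2 change of 2.12 ± 0.25 (SE), adjusted p = 1.02e-10. RHEB, which activates mTORC1, and the translational repressor EIF4EBP1 rose by 0.99 and 0.94. Of the 15 genes in that list 5 rose and 0 fell at 0.37 µM (1 lower at an unadjusted p under 0.05 and 0 by the Wald test), and 1 rose and 9 fell at 3.33 µM. Of 7 tested paralogs outside the rule, RPL22L1 was the 1 called at 0.37 µM under TMM, while with size factors RPL36AL and RPL7L1 were also called, both higher. RPL22L1 read 252, 163, 208 and 267 CPM at 0.37 µM against 877 to 1351 CPM with a median of 1101 in DMSO, below the DMSO range in all 4 wells, with a log2 change of −2.30 ± 0.15 (SE), adjusted p = 9.03e-22. RPL22 itself was at −0.01 there and not called. The paralogs RPL39L and RPL3L were at −0.72 and −1.69, neither called, the second on levels of 0 to 7.93 CPM in DMSO. Of 12 ribosome quality control factors 3 rose and 1 fell at 0.37 µM: PELO, a ribosome rescue factor, by 1.78, ZNF622 by 1.42 and ASCC2 by 0.74, while TCF25 was at −0.73. ASCC2 was named after its value was seen. At 3.33 µM 1 of the 12 rose and 8 fell.

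**Figure D5:**
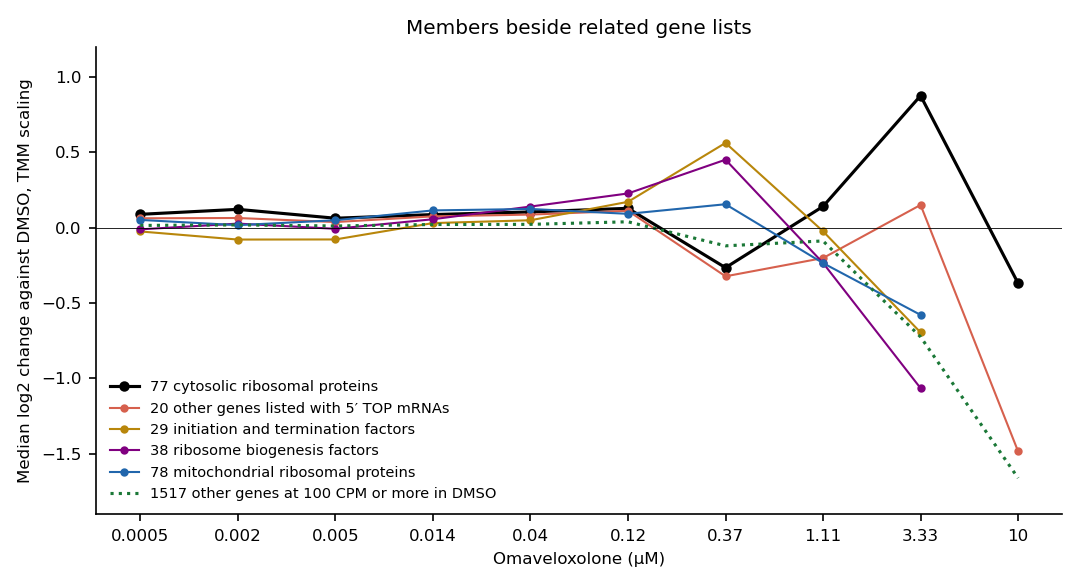
Median log2 change against DMSO under TMM scaling by dose in µM, for the 77 members, 4 related lists and 1517 other genes with at least 100 CPM in DMSO; 3 of the lists are drawn to 3.33 µM only. At 0.37 µM the members and the other 5′ TOP genes lie below 0 and the factor lists above it, and at 3.33 µM the members stand at 0.88 and the other 5′ TOP genes at 0.15.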

How the data were processed

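The authors' deposited counts came from DRUG-seq libraries; the submitters' processing notes name kallisto, bustools and GRCh38 and give no versions, and whether the deposited counts are reads or molecules is not given in the sources used here. Values were whole-number counts per gene and well, with no normalization. The members and gene lists were chosen with earlier results of these data known. From the 23170 counted genes 38 were left out, among them a pseudogene resembling 18S ribosomal RNA, leaving 23132; 14259 passed edgeR's filter on low counts (minimum count 10). All 72 wells were fitted together with edgeR 4.0.16 (limma 3.58.1, R 4.3.3), quasi-likelihood F-tests of each dose against 32 DMSO wells and of each dose against the next lower, with TMM scaling and Benjamini-Hochberg adjustment over all genes tested; a gene was called at an adjusted p under 0.05. The same test was repeated with DESeq2 1.42.0 size factors. SE is the standard error of a log2 change, from the fit of all wells together. CPM is the usual depth-scaled count, here after TMM or size factors. Tables and figures were made with Python 3.11.15, pandas 2.3.3, NumPy 2.4.6 and Matplotlib 3.10.9, and the fitting code was tested on simulated data. KRT5, KRT14 and KRT1 were not analysed here.

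Over the genes analysed, wells ranged from 25635 counts at 10 µM to 10386621 at 0.37 µM, so the top doses are the least precise. Alternatives covered other scalings, other control wells, no filter, a plate side term, a block on replicate number, each replicate left out, and DESeq2's Wald test. Library totals are sums over the 23132 genes analysed, without the 38 left out. Two-sided tests were used. Named members were RPLP0, RPLP1, RPLP2, RPSA, RPL5, RPL11, RPS6, RPS27A and RPL41, the 5 with the highest mean CPM in DMSO, the 4 highest and 4 lowest log2 changes at each dose from 0.12 µM, and up to 4 called in opposite directions by the 2 scalings at 3.33 and 10 µM. In each other list, the 3 genes with the smallest p at 0.37 µM were named. Some genes that this rule names are not reported here.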

Additional observations from a re-analysis of the deposited data

Results flagged for a closer look

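In 5 of 102 groups of 4 wells examined, 1 well stood apart from the other 3, and chance alone does so in about 1 in 20 groups. At 0.014 µM replicate 4 had 56.8% of member counts on the large subunit, beside 57.6 to 57.8% in the other wells. RPLP2, the acidic stalk protein, read 1737 CPM in replicate 2 at 0.37 µM, beside 2075 to 2126, and that replicate was the lowest well for 76 of the 77 members. RPS27A, the ubiquitin fusion, read 1000.4 CPM in replicate 2 at 0.12 µM, beside 912 to 923. RPL15 read 1942 CPM in replicate 2 at 3.33 µM, beside 3290 to 3474. RPS7 read 895 CPM in replicate 3 at 10 µM, beside 80.7 to 196, on 6 to 51 counts per well.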

How the results depend on the processing

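The rise at 3.33 µM was the steadiest result: 56 to 75 members were called higher at that dose under every alternative other than scaling to the member counts, and the shares of counts kept their direction in all but 1 total. With all counted genes in the total it came to 18.4% for 3.33 µM and 8.30% for 10 µM. Counts of higher and lower members follow, and the cause of each shift was not tested. With size factors there were 7 higher and 11 lower at 0.37 µM, 34 higher at 1.11 µM, 42 higher and 10 lower at 10 µM, 8 lower from 0.12 to 0.37 µM, 8 lower from 0.37 to 1.11 µM, and 4 higher and 41 lower from 3.33 to 10 µM. Size factors without the members gave 6 and 13 at 0.37 µM, 37 and 6 at 1.11 µM, 45 and 8 at 10 µM, and 9, 7 and 0 lower and 4 higher in the 4 steps in turn. DESeq2's Wald test gave 2 lower below 0.12 µM, 1 higher at 0.12 µM, 15 and 17 at 0.37 µM, 41 higher at 1.11 µM, 45 and 11 at 10 µM, and, in the steps, 2 and 17, 12 lower, and 5 and 43. Library totals gave 6 and 23 at 1.11 µM, 52 and 7 at 10 µM, 7 lower from 0.37 to 1.11 µM, 0 lower from 1.11 to 3.33 µM and 7 and 39 from 3.33 to 10 µM. TMM over abundant genes gave 2 and 22 at 0.37 µM, 31 higher at 1.11 µM, 0 lower at 3.33 µM, 52 and 7 at 10 µM, 14 lower from 0.12 to 0.37 µM, 0 lower from 1.11 to 3.33 µM, 3 higher from 3.33 to 10 µM, and 20 between the DMSO columns. TMMwsp gave 7 lower at 1.11 µM. Scaled to the counts on members, a setting chosen after seeing the data like the size factors without members and the total over all genes, there were 11 and 12 at 0.37 µM, 7 and 23 at 1.11 µM, 16 and 31 at 3.33 µM, 23 and 24 at 10 µM, and 2 and 5, 10 and 21, 15 and 19, and 21 and 15 in the steps.

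Control wells and fitted wells also mattered. With DMSO wells of column 2 there were 1 lower below 0.12 µM, 10 higher at 1.11 µM and 0 lower from 1.11 to 3.33 µM. With column 23 there were 0 lower at 0.12 µM, 19 at 0.37 µM, 6 at 1.11 µM and 0 from 1.11 to 3.33 µM. With DMSO wells of rows K and L there were 0 lower at 0.12 µM, 13 at 0.37 µM, 4 and 3 at 1.11 µM, 0 lower at 3.33 µM, 5 higher at 10 µM, and 12, 2 and 0 lower in the first 3 steps. Each dose fitted with DMSO alone gave 1 lower below 0.12 µM, 4 higher at 0.12 µM, 1 higher at 0.37 µM, 31 higher at 1.11 µM, and 48 and 7 lower in the first steps. Without the 3.33 and 10 µM wells there were 4 higher at 0.12 µM, 2 at 0.37 µM and 31 at 1.11 µM, and 48 and 7 lower in the first steps. Without the low-count filter there were 0 lower at 0.12 µM and 0 from 1.11 to 3.33 µM. Leaving out each replicate gave 0 to 1 lower at 0.12 µM, 23 to 36 at 0.37 µM, 12 to 33 from 0.12 to 0.37 µM (12 without replicate 2), 2 to 4 from 0.37 to 1.11 µM and 0 to 1 from 1.11 to 3.33 µM.

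Replicate numbers did not pair the wells: the mean correlation of wells with the same number was −0.013, 32 of 220 pairs were over 0.1, and 6 of 44 wells correlated best with their own number. The replicate block was fitted on these 44 wells alone, with DMSO replicates 1 to 4 as the only controls. The block and the smaller control group cannot be told apart in its counts. It gave 0 lower at 0.12 µM, 5 at 0.37 µM, 4 and 2 at 1.11 µM, 0 lower at 3.33 µM, 6 and 26 at 10 µM, 11 lower from 0.12 to 0.37 µM, 24 and 2 from 0.37 to 1.11 µM and 0 lower from 1.11 to 3.33 µM.

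The member median turned to −0.063 at 1.11 µM with library totals. At 10 µM it turned to 0.52 with size factors and 0.52 with the Wald test, 0.73 with library totals, 0.68 with TMM over abundant genes and 0.61 with size factors without the members. Under those 5 settings in that order RPL8 was at 0.33, 0.30, 0.53, 0.47 and 0.41, RPS12 at 0.39, 0.40, 0.60, 0.56 and 0.48, and RPS6 at 0.33, 0.32, 0.55, 0.49 and 0.42. RPL11 turned to 0.44 with library totals and 0.39 with TMM over abundant genes. Of the log2 changes of named members, 1251 kept direction and side of the threshold, 92 lost and 83 gained the call, and 17 turned. Depth limits the 10 µM values most, where 75 to 77 members had a count in each well.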
